A study of Danio rerio with 228 samples.

Results

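The genes described here encode the extracellular matrix of the zebrafish embryo and the receptors and enzymes that act on it. They were taken by name from a targeted RNA panel (TempO-Seq, in which pairs of short probes are joined on each transcript and counted by sequencing), as every probe whose symbol begins with COL and a digit, MATN, LAMA, LAMB, LAMC, ITGA, ITGB, FBN, FBLN, TIMP, SPARC, POSTN, ACAN, VCAN, DCN, BGN, HAPLN, TNC, LOX, ADAM, THBS, SPP1, CTSK or MMP, with MMP9 left out. The rule found 59 of 3183 probes (1.85%), which stand for 58 genes because lamb2 has a pair of probes. The prefixes also take in itgb1bp1, a cytoplasmic protein that binds integrin tails, and membrane proteases of the ADAM family, so the set is wider than structural matrix.

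Each library came from a pool of 10 whole embryos that had been in contact with 1 of 9 per- and polyfluoroalkyl substances (PFAS), at 1 of 5 concentrations, between 4 and 120 h after fertilisation. The labels name no mutant or transgenic line. The carboxylic acids were PFBA and PFHxA at up to 600 µM, PFOA at up to 400 µM, PFNA at up to 450 µM and PFDA at up to 12 µM. The sulfonic acids were PFBS at up to 600 µM, PFHxS at up to 400 µM, PFOS at up to 40 µM and PFDS at up to 6 µM. Exposed groups held 4 pools, except that PFOS groups and PFOA at 40, 120 and 400 µM held 5. All groups, controls included, carried 0.1% DMSO. PFBA, PFHxA, PFBS and PFHxS were compared with control_ottawa (6 DMSO pools of fish from the Ottawa facility). PFOA, PFOS and PFDS were compared with control_mixed (4 DMSO pools of fish from Ottawa and Montreal), and so was PFDA, which no control label names. PFNA was compared with control_pfna (16 DMSO pools), of which only replicates 13 to 16 share the RNA extraction batch of the exposed PFNA pools. Only these replicates are named PFNA controls in the sample names. The other control_pfna pools are named EM, ENV or EP controls, so they may come from other experiments. The PFNA and control_pfna pools were on a plate that held no pool of another chemical or DMSO group. Nothing in the labels says that the pools of a group came from separate spawnings, so p-values measure the spread between pools, which may be partly technical.

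Fibrillar collagens form the load-bearing fibrils of bone, skin and cartilage, fibril-associated collagens decorate them, and network-forming collagens and laminins build basement membranes. Matrilins, link protein and small proteoglycans tie these fibres together, integrins anchor cells to them, and metalloproteases and their inhibitors (the TIMPs) set how fast the matrix is turned over. In the zebrafish larva much of this matrix is made by the cartilage of the jaw and gill arches, the notochord sheath, the fin folds, the skin and the first bone cells.

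Levels are CPM (a probe's count scaled to a common library size after TMM normalization), given per pool or as mean ± SD, and log2 changes (exposed over DMSO) carry the standard error of the fit. A gene is said to have risen or fallen only where edgeR's quasi-likelihood test with Benjamini-Hochberg adjustment over the whole panel gave an adjusted p under 0.05. Library totals of the 214 embryo pools used here were 2254364 to 4466565 counts (median 3217205), and the 59 probes together took 2.02 to 4.47% of the counts of a pool at the highest concentrations and 2.28 to 4.25% of those of a DMSO pool. Levels of different genes are not compared, because probes differ in efficiency. RNA came from whole embryos, so fewer cells of a type and less RNA per cell cannot be told apart.

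Of the 59 probes, 54 passed the low-count filter for at least 1 chemical and 5 (adam15, col10a1b, col4a6, itgb5 and lama3) passed it for none. Over the 45 comparisons of an exposed group with its DMSO pools, 38 members changed at least once: 31 fell at least once, 11 rose at least once, and 4 of these did both. The share of tested members called at least once was 70.4%, where 59.5% of the 2886 panel probes tested were called at least once (36.4% lower, 34.1% higher). The other 16 tested members changed in no comparison, among them the basement membrane collagens col4a1 and col4a2, both lamb2 probes, lama2, the integrin subunits itgae.2, itgb1a, itgb2 and itgb8, the crosslinking enzyme loxl1 and thbs1b. Changes were concentrated at the highest concentrations, and the largest number came with PFNA at 450 µM, as the map of log2 changes shows.

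**Figure D1:**
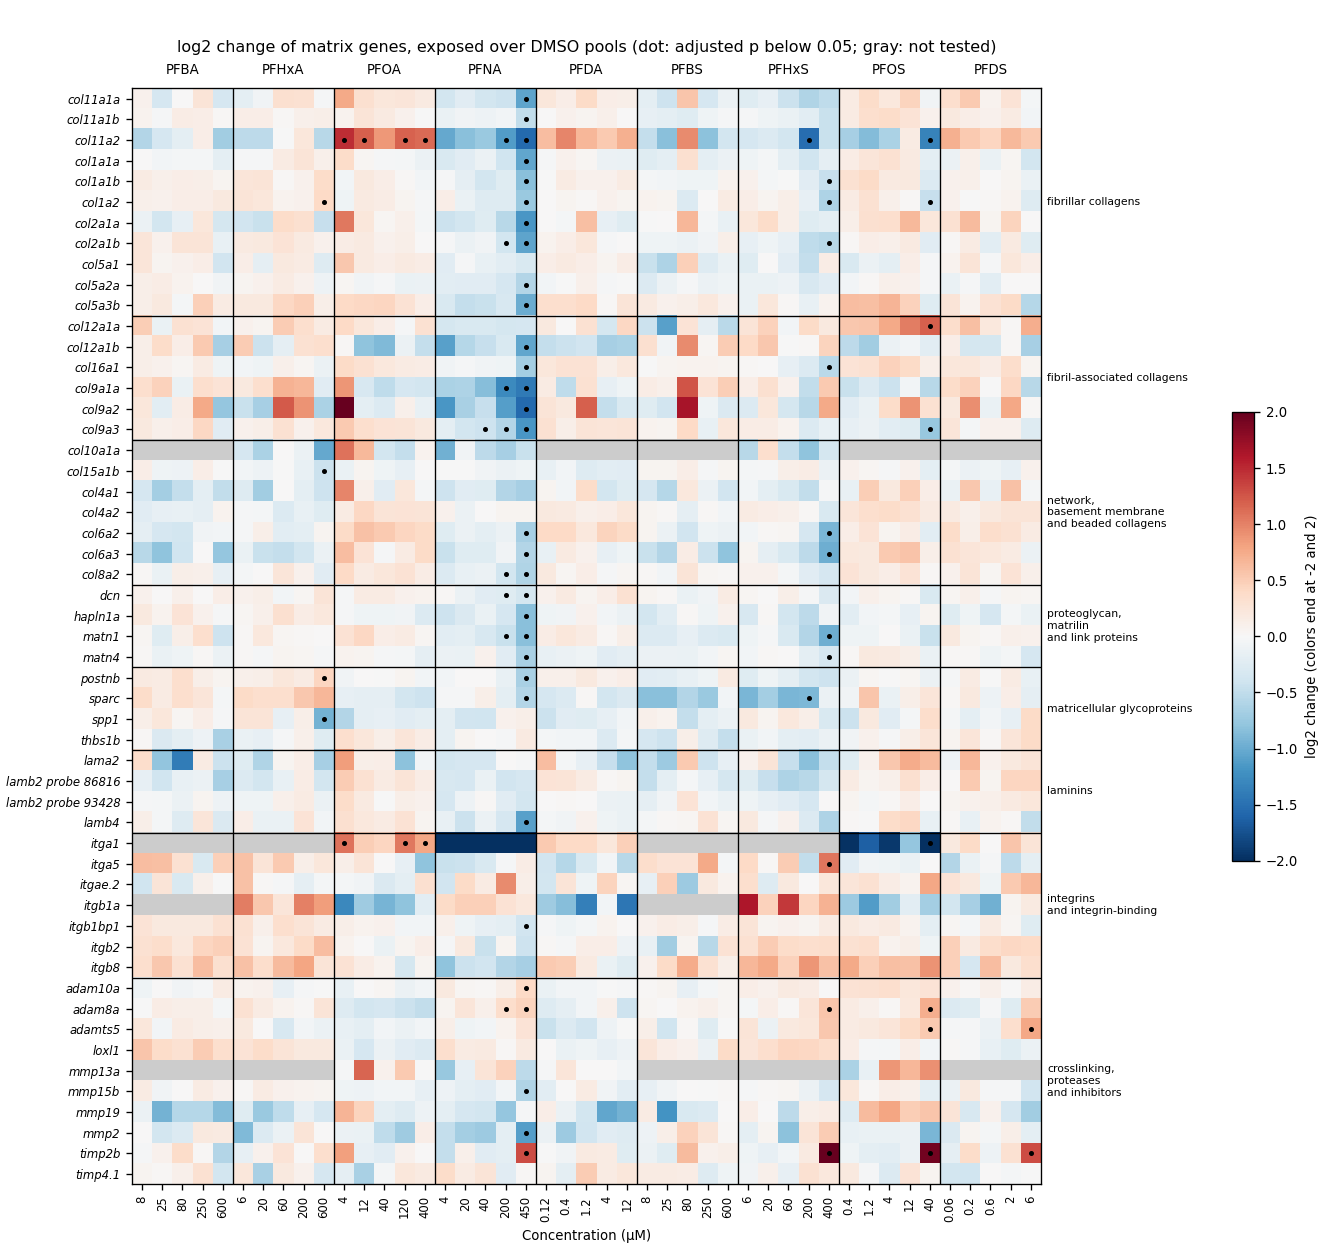
Fitted log2 change (color, exposed over DMSO pools) of 53 of the 54 tested members, in rows by role, in 45 comparisons, in columns by chemical with concentration rising to the right in µM. Dots mark an adjusted p under 0.05, gray cells were not tested, and the PFNA 450 µM column holds 31 dots.

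Most of the collagen and cartilage matrix genes fell with PFNA at 450 µM. Of 54 members tested, 28 fell and 4 rose (59.3% of the members, where 33.1% of all 2848 probes tested changed, 16.9% lower and 16.2% higher), and the median log2 change was -0.58 over the members and -0.09 over all probes. In 12 of the 28 the 4 exposed pools lay below all 16 DMSO pools, as they did in 26.8% of the 481 panel probes that fell (4.53% of all probes tested). The members' share of all counts was 2.02 to 2.45% in the exposed pools and 2.88 to 4.25% in control_pfna.

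Among the fibrillar collagens 10 of 11 fell and none rose, with a median log2 change of -0.99. The type II collagen gene col2a1b, which encodes the main fibril of cartilage and notochord sheath, had 403, 423, 565 and 451 CPM in the exposed pools, against 689 to 1166 (median 972) CPM in control_pfna. The groups did not overlap, and the log2 change was -1.05 ± 0.11 (adjusted p = 1.02e-09 by edgeR's quasi-likelihood test). Its paralog col2a1a had 1010, 996, 1208 and 1199 CPM in the exposed pools, against 1425 to 4123 (median 2336) CPM in control_pfna, again without overlap. The type I collagen gene col1a1a, of bone, skin and fin fold, had 255, 197, 237 and 287 CPM in the exposed pools, against 393 to 914 (median 462) CPM in control_pfna. Every exposed pool was below every DMSO pool, with a log2 change of -1.04 ± 0.15. The other type I chains also fell: col1a1b with a log2 change of -0.83 ± 0.14 and col1a2 with -0.74 ± 0.17, where 1 DMSO pool at 3005 CPM lay below the exposed pools (4458, 4085, 5216 and 3702 CPM). The minor cartilage collagens of type XI also fell, with log2 changes of -1.55 ± 0.39 for col11a2, -1.06 ± 0.18 for col11a1a and -0.49 ± 0.12 for col11a1b. Type V collagen, which sets fibril width, had -0.99 ± 0.26 for col5a3b and -0.59 ± 0.12 for col5a2a, while col5a1 did not pass at -0.30 ± 0.18.

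Of the fibril-associated collagens 5 of 6 fell and none rose, with a median log2 change of -1.10. The type IX chain col9a3, which sits on the surface of cartilage fibrils, had 113.8, 97.2, 127.2 and 125.97 CPM in the exposed pools, against 215 to 422 (median 249.6) CPM in control_pfna. No exposed pool reached the lowest DMSO pool, and the log2 change was -1.16 ± 0.13 (adjusted p = 6.12e-09 by edgeR's quasi-likelihood test). For col16a1, a type XVI chain, the exposed pools had 120.5, 155.7, 172.1 and 120.1 CPM and control_pfna 186.1 to 263 (median 231.6) CPM, also without overlap, with a log2 change of -0.68 ± 0.11. The other type IX chains spread widely in the DMSO pools. Those of col9a2 ranged over 79.5 to 652 (median 143.6) CPM, and its log2 change of -1.55 ± 0.43 was -1.11 ± 0.30 without control_pfna replicates 10 and 11, which stood at 651.5 and 419.6 CPM. For col9a1a the corresponding log2 changes were -1.42 ± 0.38 and -1.08 ± 0.28. The type XII gene col12a1b fell at a low level (1.98 ± 0.543 CPM in the exposed pools and 4.13 ± 1.68 CPM in control_pfna), and its paralog col12a1a did not pass at -0.33 ± 0.25. Without those 2 DMSO pools the count of members called at 450 µM was again 32, where 35.7% of the panel changed, but col12a1b was no longer called and itga1 was called lower.

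All 4 proteoglycan, matrilin and link protein genes fell. The matrilin genes matn1 and matn4 encode adaptor proteins of the cartilage matrix. In the exposed pools matn1 had 131.6, 156.000, 162.5 and 183.7 CPM, against 203 to 361 (median 279.7) CPM in control_pfna, and its log2 change was -0.84 ± 0.12. In the same pools matn4 had 1352, 1094, 1398 and 1336 CPM, against 1502 to 2326 (median 2055) CPM in control_pfna, and its log2 change was -0.65 ± 0.09. Neither matrilin overlapped between the groups. The link protein hapln1a, which holds aggrecan to hyaluronan, had a log2 change of -0.83 ± 0.17, and decorin (dcn), a small proteoglycan on collagen fibrils, one of -0.35 ± 0.08.

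Of the network, basement membrane and beaded collagens 3 of 7 fell. These were the type VI genes col6a2 (-0.67 ± 0.23) and col6a3 (-0.58 ± 0.21), of the beaded filaments around muscle and other cells, and the type VIII gene col8a2 (-0.60 ± 0.10). The type IV genes col4a1 and col4a2 of basement membranes stood at -0.66 ± 0.28 and 0.05 ± 0.14 and did not pass. The call of col6a2 was lost without either of 2 exposed pools, and that of col6a3 without any of 3. Among the matricellular genes the collagen-binding glycoproteins postnb (periostin) and sparc fell, postnb to 1134 ± 211 CPM, against 1783 ± 225.5 CPM in control_pfna, and sparc to 6439 ± 1192 CPM, against 9611 ± 2134 CPM in control_pfna. Osteopontin (spp1, 0.11 ± 0.26) and thrombospondin thbs1b (0.18 ± 0.12) did not pass.

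Laminins, integrins and enzymes moved in both directions. The laminin chain lamb4 fell (-1.09 ± 0.23). Of 7 integrin and integrin-binding genes only itgb1bp1 passed, with a log2 change of -0.39 ± 0.11. Of the 10 enzymes and inhibitors tested, the metalloprotease genes mmp2 (-1.10 ± 0.37) and mmp15b (-0.60 ± 0.14) fell, and timp2b, adam8a and adam10a (a membrane sheddase) rose. The level of adam10a was 1099 ± 83.1 CPM in the exposed pools and 834 ± 133.7 CPM in control_pfna, a log2 change of 0.40 ± 0.11. The calls of mmp2 and col12a1b, both near the low-count limit, were each lost without any of 3 exposed pools.

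PFNA at 450 µM was also set against only the 4 DMSO pools of the same extraction batch, those named PFNA controls. It then had 22 members lower and 3 higher of 52 tested, where 24.9% of the panel changed. The median log2 change of the members was -0.44. Of the 32 genes above, 23 kept their call, and of these hapln1a and itgb1bp1 missed the threshold when the extraction batch was a term in a fit with all 16 DMSO pools. Among the structural genes named above the log2 change with these pools was -0.97 ± 0.11 for col2a1b, -1.07 ± 0.13 for col9a3, -0.88 ± 0.11 for col1a1a, -0.72 ± 0.13 for col16a1, -0.66 ± 0.10 for matn4 and -0.56 ± 0.12 for matn1. With these pools itgb2, the leukocyte integrin beta chain, also fell and thbs1b rose. PFNA's own 4 µM pools, also of this batch, were another reference. Against them the calls of col11a1b, col11a2, col5a2a, col5a3b, col6a2, col6a3 and col8a2 missed the threshold. So did those of col9a1a, col9a2, hapln1a, mmp2 and adam10a, and col12a1b reversed. The calls of col2a1b, col9a3, col1a1a, col16a1, matn1 and matn4 held. The panel share for this reference is not given. RNA yield was 176.8 ± 38.2 ng/µl in the exposed pools and 250.1 ± 51.1 ng/µl in control_pfna (exact permutation test, p = 0.0151, 0.0855 after adjustment over the 9 chemicals, n = 4 and 16). RNA integrity averaged 9.38 in the exposed pools and 9.69 in control_pfna (exact permutation test, p = 0.00826, adjusted 0.0743). The part of yield and integrity in these changes was not tested.

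At lower PFNA concentrations few members passed. No member changed at 4 µM, where 0.246% of the panel changed, or at 20 µM (1.23%). An unadjusted p under 0.05 was found for 13 of 54 members at 4 µM, where 12.3% of the panel had one, and for 5 of 54 at 20 µM, where 12.1% had one. The type IX gene col9a3 was the one member that fell at 40 µM, where 4.21% of the panel changed and 1.37% fell. It had 169.3, 172.4, 205.8 and 235.8 CPM at 40 µM, 150.7, 141.5, 200.1 and 199.7 CPM at 200 µM and 113.8, 97.2, 127.2 and 125.97 CPM at 450 µM, against 215 to 422 (median 249.6) CPM in control_pfna. Its log2 changes were -0.41 ± 0.12, -0.59 ± 0.12 and -1.16 ± 0.13 at these 3 concentrations, each lower than the one before, and the groups overlapped only at 40 µM.

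At 200 µM 7 members fell and 1 rose, 14.8% of the members where 9.69% of the panel changed (4.04% lower, 5.65% higher). The 7 were the cartilage genes col2a1b (-0.37 ± 0.10), col9a3, col9a1a (-1.27 ± 0.37), col11a2 (-1.11 ± 0.37) and matn1 (-0.45 ± 0.12), with col8a2 and dcn, and the 1 that rose was adam8a. All PFNA concentrations share the control_pfna pools. This count rests on single pools and on the controls: it was 1 without replicate 2 of PFNA at 200 µM and 11 without control_pfna replicate 10 (panel shares not given). Against the 4 DMSO pools of the same extraction batch it was 1 (col9a3, -0.49 ± 0.12, adjusted p = 0.0194 by edgeR's quasi-likelihood test), where 3.76% of the panel changed. At 40 µM the same 4 pools gave itgb2 and not col9a3 (-0.32 ± 0.12), where 3.36% of the panel changed. At 4 µM, where none passed, 43 of 54 members had a negative log2 change with a median of -0.21 (54.6% of all probes, with a median of -0.03), and 39 of 52 with a median of -0.09 against the 4 pools of the same batch. No member passed against those 4 pools at 4 or 20 µM, where 0.144 and 0.722% of the panel changed.

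**Figure D2:**
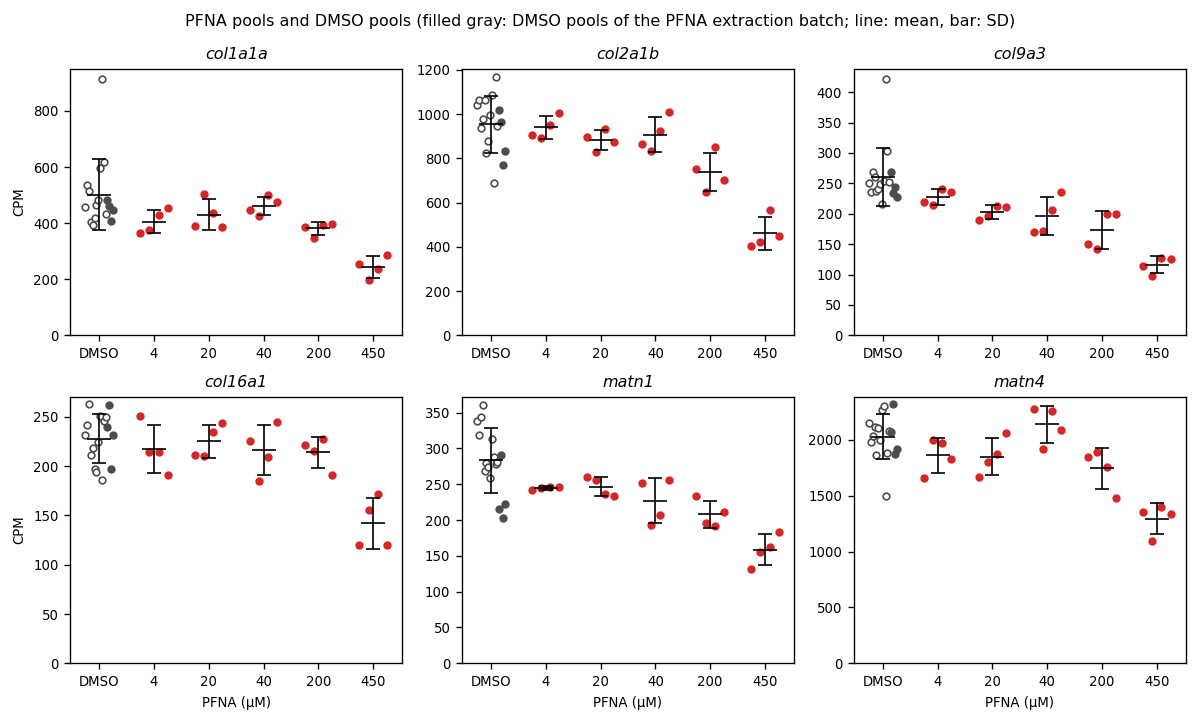
CPM of 6 members in every PFNA pool (red) at 4, 20, 40, 200 and 450 µM and in the 16 control_pfna pools (gray, filled for the 4 of the PFNA extraction batch), with mean and SD. At 450 µM all 4 pools of each gene lie below all DMSO pools, while from 4 to 40 µM the groups overlap, except for col9a3 at 20 µM.

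Genes of neighboring pathways were read from lists beside the matrix genes at PFNA 450 µM. In this comparison 33.1% of all probes tested changed (16.9% lower, 16.2% higher), and no list was tested against that share. Of 6 tested cartilage regulators, 2 fell and none rose: cnmd (chondromodulin, a cartilage glycoprotein) with 98.8 ± 13.4 CPM in the exposed pools and 155.8 ± 25.6 CPM in control_pfna, a log2 change of -0.66 ± 0.13, and barx1 (a transcription factor of jaw cartilage) with 7.81 ± 2.09 CPM in the exposed pools and 13.9 ± 3.47 CPM in control_pfna, a log2 change of -0.83 ± 0.26. Of 9 genes for collagen folding, hydroxylation and secretion 3 fell: plod3 (a lysyl hydroxylase, -0.65 ± 0.17), pcolcea (a procollagen C-proteinase enhancer, -1.18 ± 0.40) and kdelr2b (-0.47 ± 0.17). Of 6 matrix turnover genes that are not members 4 rose and 1 fell. The lysosomal protease gene ctsla had 11470 ± 1562 CPM in the exposed pools and 4204 ± 1076 CPM in control_pfna, a log2 change of 1.45 ± 0.14, and another, ctsd, had 201.9 ± 39.4 CPM in the exposed pools and 90.3 ± 23.03 CPM in control_pfna, a log2 change of 1.16 ± 0.15. In the TGF-beta list 2 of 8 rose (ccn2a and ccn1) and tgfbi, a collagen-binding matrix protein, fell. In the focal adhesion list 4 of 17 rose, among them the hyaluronan receptor cd44a (0.91 ± 0.19), and 3 fell. Of 7 genes for proteoglycan sugar chains only ugdh rose, and of 2 bone genes ifitm5 fell.

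Markers of other cell types were read in the same pools, where 33.1% of all probes tested changed, and all tested markers were above 0. Leukocyte markers had 1 of 9 lower (lyz) and a summed level of 269 to 304 CPM in the exposed pools and 214 to 445 CPM in control_pfna. Notochord markers had 0 of 2 called, with sums of 480.4 to 641 CPM in the exposed pools and 441 to 627 CPM in control_pfna. Thrombocyte and endothelium markers had 0 of 4 called, skeletal muscle markers 1 of 3 higher, skin markers 1 of 2 higher, and liver markers 2 of 10 higher and 6 lower. The muscle sums were 16180 to 20970 CPM in the exposed pools and 7862 to 26710 CPM in control_pfna, so these groups overlapped. The liver sums were 7212 to 9375 CPM in the exposed pools and 6990 to 9779 CPM in control_pfna. The part of liver and blood cell content in the matrix changes was not tested.

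The metalloprotease inhibitor gene timp2b rose at the highest concentration of 4 chemicals of both acid classes. With PFNA at 450 µM it had 64.7, 41.5, 38.5 and 38.1 CPM in the exposed pools, against 10.6 to 64.95 (median 13.8) CPM in control_pfna. The groups overlapped through 1 DMSO pool, replicate 10, and the log2 change of 1.31 ± 0.27 was 1.66 ± 0.16 without replicates 10 and 11 and 1.55 ± 0.22 against the 4 pools of the same extraction batch. With PFHxS at 400 µM it had 72.8, 23.6, 74.7 and 114.9 CPM in the exposed pools, against 12.4 to 23.8 (median 14.6) CPM in control_ottawa, a log2 change of 2.16 ± 0.32. Replicate 2, the lowest exposed pool, lay just under the highest DMSO pool. With PFOS at 40 µM the exposed pools had 86.5, 42.5, 70.8, 52.5 and 52.1 CPM, against 15.9, 12.4, 11.8 and 23.8 CPM in control_mixed, with no overlap and a log2 change of 1.93 ± 0.25. With PFDS at 6 µM they had 41.4, 42.2, 30.5 and 48.4 CPM, against 16.7, 12.7, 11.9 and 24.5 CPM in control_mixed, again with no overlap, and the log2 change was 1.30 ± 0.27. Leaving out any single pool ended none of these 4 calls. PFOS and PFDS share their control pools. In 1 of 4 libraries labelled water the timp2b count was 2.19 times the median count of the embryo pools, and in the other 3 it was 2 to 7. The other inhibitor on the panel, timp4.1, passed in no comparison.

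The protease gene adam8a, expressed mainly by myeloid cells in mammals, rose with PFNA at 200 and 450 µM, PFHxS at 400 µM and PFOS at 40 µM. With PFNA at 450 µM the exposed pools had 77.3, 75.4, 59.01 and 82.96 CPM, against 42.9 to 69.4 (median 53.1) CPM in control_pfna, with overlap and a log2 change of 0.45 ± 0.10. With PFHxS at 400 µM they had 78.3, 48.9, 80.6 and 55.4 CPM, against 35.1 to 50.6 (median 45.2) CPM in control_ottawa, also with overlap, a log2 change of 0.56 ± 0.14. With PFOS at 40 µM they had 73.8, 65.7, 78.6, 66.8 and 79.3 CPM, against 50.8, 38.97, 50.8 and 36.2 CPM in control_mixed, without overlap, a log2 change of 0.72 ± 0.17. For PFDS at 6 µM the log2 change was 0.50 ± 0.19 and did not pass. Leukocyte markers were read beside it. With PFNA at 200 µM 6 of 9 were higher, with a summed level of 427 to 594 CPM in the exposed pools and 214 to 445 CPM in control_pfna. At 450 µM 0 of 9 were higher. With PFHxS at 400 µM 0 of 9 were higher and 2 lower (sums of 218 to 304 CPM in the exposed pools and 275 to 436 CPM in control_ottawa), and with PFOS at 40 µM 1 was higher and 1 lower (229 to 545 CPM in the exposed pools and 272 to 391 CPM in control_mixed). Their part in the rise of adam8a was not tested.

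**Figure D3:**
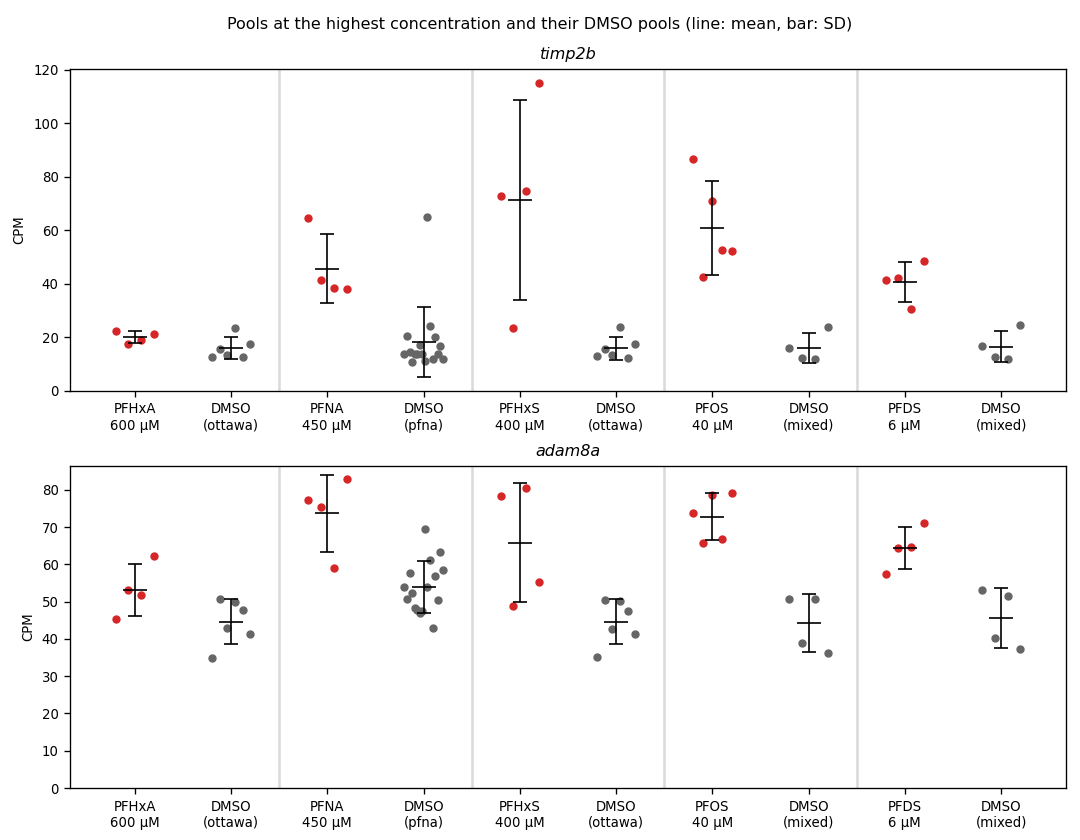
CPM of timp2b (upper panel) and adam8a (lower panel) in each pool at the highest concentration of 5 chemicals (red), beside its DMSO pools (gray), with mean and SD. For timp2b all PFOS and PFDS pools lie above their DMSO pools, and 1 control_pfna pool lies among the PFNA pools.

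With PFHxS at 400 µM 8 members of 52 fell and 3 rose, 21.2% of the members where 21% of the panel changed (8.96% lower, 12% higher), so the share of members was that of the panel. The 8 were the type VI genes col6a2 and col6a3, matn1 and matn4, col16a1, col2a1b, col1a1b and col1a2, and each of these 8 also fell with PFNA at 450 µM. There 28 of 54 members fell, and the same overlap over the whole panel is not given. The beaded-filament gene col6a2 had 51.7, 62.5, 36.2 and 16.6 CPM in the exposed pools, against 62.8 to 87 (median 81.02) CPM in control_ottawa, with no overlap and a log2 change of -0.92 ± 0.22 (adjusted p = 0.00371 by edgeR's quasi-likelihood test). For matn1 the exposed pools had 96.2, 199, 181.2 and 98.5 CPM, against 118.9 to 360.3 (median 305) CPM in control_ottawa, a log2 change of -0.98 ± 0.25, and the lowest DMSO pool lay among the exposed ones. For col16a1 the exposed pools had 133.1, 188.9, 127.8 and 156.1 CPM, against 175.9 to 242.3 (median 225) CPM in control_ottawa, a log2 change of -0.54 ± 0.13. The cartilage collagen col2a1b had 499.8, 875, 597 and 418 CPM in the exposed pools, against 698 to 1087 (median 853) CPM in control_ottawa, a log2 change of -0.56 ± 0.17. In both genes replicate 2 was the highest exposed pool, inside the DMSO range. The type I chain col1a2 had 5047, 7007, 4269 and 2087 CPM in the exposed pools, against 5941 to 7938 (median 7076) CPM in control_ottawa, a log2 change of -0.62 ± 0.19, with the lowest value in replicate 4. This call was lost without exposed replicate 3 or 4 or control_ottawa replicate 4. Exposed replicate 4 also had 623.5 CPM of col9a2, 9.6 times the median of the other pools of its group. Besides timp2b and adam8a, the fibronectin receptor gene itga5 rose (7.79 ± 1.43 CPM in the exposed pools and 3.72 ± 2.41 CPM in control_ottawa), a call lost without any of 6 pools. With the RNA extraction batch as a term in the fit, col6a2, col6a3, matn4, col1a2 and itga5 missed the threshold (col6a2 at -0.81 ± 0.31 and col1a2 at -0.71 ± 0.25). The other 6 calls held with this term, matn1 among them. The lowest exposed pools of matn1, replicates 1 and 4, came from other extraction batches than most control_ottawa pools. The size of the matn1 change with the batch term is not given here, so -0.98 is not separated from batch. Of 3 skeletal muscle markers 2 were higher and 1 lower, with summed levels of 13940 to 30390 CPM in the exposed pools and 27460 to 43640 CPM in control_ottawa. Of 2 notochord markers 1 was higher (sums of 494.1 to 856.3 CPM in the exposed pools and 518.3 to 760.2 CPM in control_ottawa), and of 10 liver markers 2 were higher and 1 lower. Their part in the matrix changes was not tested. Over all members the count was 6 without control_ottawa replicate 4 and at most 13 without any other single pool. Of 10 fits with 1 pool left out, the calls of col2a1b and col1a2 were each lost in 3. Those of col1a1b and col6a3 were each lost in 4 and that of matn4 in 5. The calls of col6a2, col16a1, matn1, timp2b and adam8a were lost in none. Against PFHxS's own lowest concentration, col2a1b, matn4 and itga5 missed the threshold.

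With PFHxS at 200 µM 2 members of 52 fell, where 7.97% of the panel changed and 3.77% fell. The type XI gene col11a2 had 4.14, 2.82, 5.12 and 4.73 CPM in the exposed pools, against 7.34 to 19.5 (median 11.3) CPM in control_ottawa, with no overlap and a log2 change of -1.53 ± 0.32. For sparc the exposed pools had 3752, 5632, 4947 and 5940 CPM, against 4256 to 16650 (median 8583) CPM in control_ottawa, a log2 change of -0.90 ± 0.27, with overlap. Of the DMSO pools 3 had 4256 to 5811 CPM, like the exposed ones, and 3 had 11360 to 16650 CPM. Neither gene passed at 400 µM, where col11a2 stood at -0.45 ± 0.30 and sparc at -0.12 ± 0.26. The count at 200 µM ranged over 1 to 5 when single pools were left out, with 1 without control_ottawa replicate 6 or any of 3 exposed pools and 5 without control_ottawa replicate 5. No member changed at 6, 20 or 60 µM, where 0.731, 1.06 and 0.768% of the panel changed, and 2, 3 and 5 of 52 members had an unadjusted p under 0.05, as had 9.29, 8.04 and 11.7% of the panel. In the list of collagen folding genes p4hb, a subunit of prolyl 4-hydroxylase, rose at 400 µM, and cnmd fell (-0.72 ± 0.20). The turnover genes mmp9 and ctsla rose there too, with 3 of 6 higher and serpinf1 lower.

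With PFOS at 40 µM 4 members of 53 rose and 4 fell, 15.1% of the members where 26.9% of the panel changed (12.6% higher, 14.3% lower). In all 8 the exposed and DMSO pools did not overlap, which held for 64.5% of all panel probes called (17.3% of those tested). Besides timp2b and adam8a, adamts5 and col12a1a rose. The proteoglycan-cutting protease adamts5, an aggrecanase in mammals, had 24.3, 22.4, 22.8, 24.7 and 32.2 CPM in the exposed pools, against 15.2, 17.6, 19.1 and 18.6 CPM in control_mixed, a log2 change of 0.52 ± 0.19 that was lost in 7 of 9 fits with 1 pool left out. The type XII collagen gene col12a1a had 11.9, 12.7, 32.6, 23.3 and 18.002 CPM in the exposed pools, against 7.59, 8.99, 10.8 and 6.84 CPM in control_mixed, a log2 change of 1.19 ± 0.39 that was lost in 3 of 9 such fits. Of the genes that fell, col9a3 had 121.6, 177.3, 142.7, 176.7 and 137.7 CPM in the exposed pools, against 193.9, 305, 291.6 and 237.9 CPM in control_mixed, a log2 change of -0.76 ± 0.19. The type I chain col1a2 had 4678, 5319, 4983, 5832 and 4402 CPM in the exposed pools, against 6504, 6502, 8020 and 6638 CPM in control_mixed, a log2 change of -0.46 ± 0.14 that missed the threshold without control_mixed replicate 3. With the RNA extraction batch as a term in the fit, adamts5 (0.62 ± 0.27), col12a1a (0.92 ± 0.39) and col1a2 (-0.44 ± 0.17) missed the threshold, and the other 5 calls held. Of 3 skeletal muscle markers 2 were higher, with summed levels of 24490 to 31870 CPM in the exposed pools and 28670 to 33970 CPM in control_mixed. Of 2 notochord markers 1 was higher (sums of 619.7 to 727.1 CPM in the exposed pools and 503.5 to 673.1 CPM in control_mixed), of 10 liver markers 2 were higher and 1 lower, and of 4 thrombocyte and endothelium markers 1 was lower. Their part in the matrix changes was not tested. The other 2 genes, itga1 and col11a2, differ between the DMSO groups and are given next. No member changed at 0.4, 1.2, 4 or 12 µM, where 1.77, 1.92, 4.35 and 6.23% of the panel changed and 3, 7, 5 and 4 of 53 members had an unadjusted p under 0.05, as had 15, 14.1, 20.5 and 21.8% of the panel.

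The collagen-binding integrin gene itga1 had 1.16, 1.13, 1.68, 0.47 and 3.47 CPM in the PFOS 40 µM pools, against 25.04, 35.2, 36.5 and 51.8 CPM in control_mixed, a log2 change of -4.58 ± 0.71. The same probe had 0.278 to 2.03 CPM in control_ottawa and 0 to 14.1 CPM in control_pfna, so the exposed level lay within those of the other DMSO groups. PFOS pools at the lower concentrations, whose labels give mixed fish, lay mostly below control_mixed already: at 0.4 µM they had 1.42, 14.2, 6.14, 14.5 and 10.499 CPM and at 12 µM 9.52, 45.2, 9.48, 21.3 and 22.3 CPM. For col11a2 the PFOS 40 µM pools had 10.4, 11.6, 12.4, 6.82 and 6.63 CPM, against 16.3, 34.1, 20.97 and 25.7 CPM in control_mixed, and control_ottawa had 7.34 to 19.5 CPM. With control_ottawa as the DMSO pools, PFOS at 40 µM gave 3 members higher and 5 lower, where 22.1% of the panel changed. Of these 8, 5 were shared with the comparison above, itga1, col11a2 and col12a1a (0.87 ± 0.33) were not among them, and col1a1a, col1a1b and matn4 had fallen instead. The counts of itga1 are low: the 4 water libraries held 2 to 20, beside a median of 6 in the embryo pools. Fish origin and exposure cannot be told apart for itga1 and col11a2 with PFOS.

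These 2 genes were also the only members that changed with PFOA, in the opposite direction. With PFOA col11a2 rose at 4, 12, 120 and 400 µM and itga1 at 4, 120 and 400 µM, so that 2, 1, 0, 2 and 2 of 54 members rose at 4, 12, 40, 120 and 400 µM, where 1.61, 1.1, 1.72, 2.31 and 2.53% of the panel changed. The share of the panel that rose was 0.696% at 4 µM, 0.44% at 12 µM, 1.28% at 120 µM and 1.28% at 400 µM. The col11a2 pools had 90.3, 78.95, 64.2 and 44.9 CPM at 4 µM, 70.4, 47.5, 63.7 and 49.3 CPM at 12 µM, 32.01, 75.2, 60.8, 60.4 and 54.3 CPM at 120 µM and 30.6, 60.9, 71.01, 50.98 and 59.4 CPM at 400 µM, against 17.1, 35.4, 21.3 and 26.3 CPM in control_mixed. Its log2 changes were 1.47 ± 0.27, 1.20 ± 0.27, 1.18 ± 0.26 and 1.13 ± 0.26, so the level did not rise with concentration. For itga1 the pools had 83.2, 88.2, 76.1 and 79.2 CPM at 4 µM, 73.9, 80.3, 57.1, 68.2 and 119.8 CPM at 120 µM and 43.6, 65.2, 74.3, 78.05 and 67.2 CPM at 400 µM, against 26.3, 36.6, 37.1 and 52.9 CPM in control_mixed. Its log2 changes were 1.09 ± 0.22, 1.06 ± 0.22 and 0.77 ± 0.22. Set against PFOA's own 4 µM pools, the 400 µM pools had log2 changes of -0.35 for col11a2 and -0.32 for itga1, the opposite sign. Without control_mixed replicate 1, the lowest DMSO pool of both genes, the count of members was 0 at 400 µM and 1 at 4 and 120 µM. Without PFOA replicate 4 at 4 µM it was 7 there. At 400 µM the call of itga1 was lost in 7 of 9 fits with 1 pool left out, and that of col11a2 in 1. The itga1 call at 400 µM also missed the threshold with DESeq2 size factors, with total counts and with all low counts kept. No member changed with PFDA at 0.12 µM or PFDS at 0.06 µM, which were also compared with control_mixed. The PFDA pools had 17.1 to 51.1 CPM of col11a2 and 31.7 to 65.2 CPM of itga1. The PFDS pools had 35.7 to 49 CPM of col11a2 and 24.5 to 60.6 CPM of itga1. The part of the control_mixed level in the rises with PFOA was not tested.

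**Figure D4:**
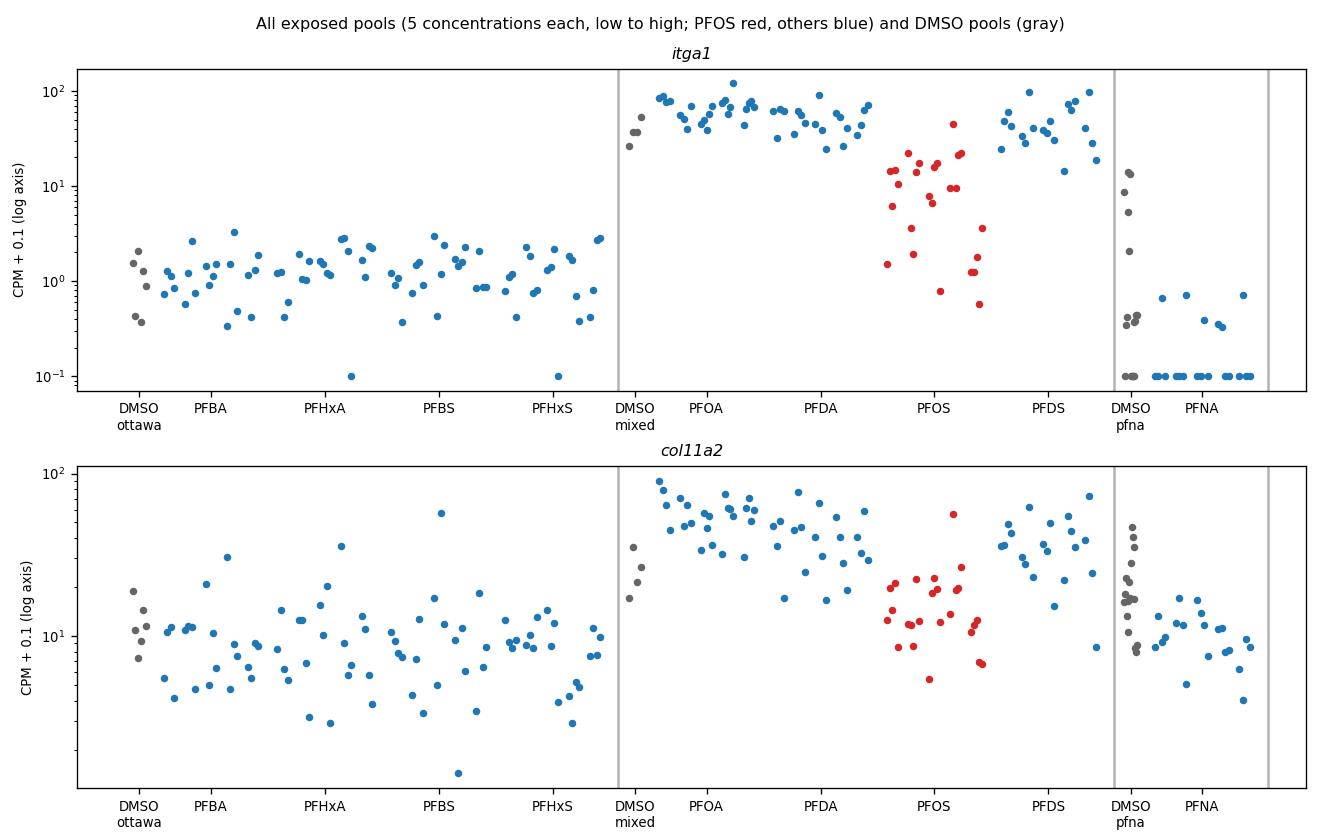
CPM plus 0.1 (log axis) of itga1 and col11a2 in every exposed pool (5 concentrations per chemical, rising to the right, PFOS in red) and in the 3 DMSO groups (gray), arranged by the DMSO group used. For itga1 control_ottawa lies at 0.271 to 1.97 CPM and control_mixed at 26.3 to 52.9 CPM, and the 25 PFOS pools spread over 0.47 to 45.2 CPM.

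With PFHxA at 600 µM 2 members of 51 fell and 2 rose, 7.84% of the members where 20.3% of the panel changed (9.5% lower, 10.8% higher). Osteopontin (spp1), a phosphoprotein of bone matrix, had 183.5, 205, 251.6 and 222.5 CPM in the exposed pools, against 356 to 479 (median 399) CPM in control_ottawa. The groups did not overlap, and the log2 change was -0.94 ± 0.21 (adjusted p = 0.00231 by edgeR's quasi-likelihood test). The basement membrane collagen col15a1b had 40.6, 32.1, 23.6 and 23.99 CPM in the exposed pools, against 33.01 to 46.8 (median 41.3) CPM in control_ottawa, with overlap and a log2 change of -0.43 ± 0.15. The type I chain col1a2 rose to 9668, 9900, 8970 and 8659 CPM in the exposed pools, against 5902 to 7884 (median 7097) CPM in control_ottawa, without overlap, a log2 change of 0.40 ± 0.13. Periostin (postnb) had 2375, 2088, 2189 and 2703 CPM in the exposed pools, against 1281 to 2458 (median 1652) CPM in control_ottawa, with overlap and a log2 change of 0.43 ± 0.14. Both genes that rose here, col1a2 and postnb, fell with PFNA at 450 µM. None of the 4 passed with the RNA extraction batch as a term in the fit, and 1 passed without control_ottawa replicate 1. With scaling by total counts, 5 members were higher and 1 lower, and 324 of 504 panel calls were higher, against 297 of 558 with TMM. Of 9 leukocyte markers 4 were higher (sums of 352.7 to 481.2 CPM in the exposed pools and 273 to 437.1 CPM in control_ottawa), of 10 liver markers 3 were higher, of 4 thrombocyte and endothelium markers 1 was lower, and their part was not tested. The members' share of counts was 3.91 to 4.47% in the exposed pools and 2.75 to 3.69% in control_ottawa. No member changed at 6, 20, 60 or 200 µM, where 0.546, 0.546, 1.2 and 1.02% of the panel changed, and 2, 3, 3 and 4 of 51 members had an unadjusted p under 0.05, as had 11, 11, 13.5 and 12.3% of the panel.

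With PFDS at 6 µM 3 members of 52 rose and none fell, 5.77% of the members where 10.2% of the panel changed and 5.87% rose. Besides timp2b, adamts5 rose. For adamts5 the exposed pools had 31.9, 26.6, 25.9 and 39.3 CPM, against 15.9, 18.2, 19.3 and 19.2 CPM in control_mixed, without overlap and with a log2 change of 0.77 ± 0.20 that was lost without PFDS replicate 4 and, at 0.80 ± 0.25, with the RNA extraction batch as a term. Collagen genes did not pass: of the fibrillar collagens 0 of 11 changed, with col1a2 at -0.26 ± 0.13 and col2a1b at -0.25 ± 0.21. In the TGF-beta list 2 of 8 rose, and among the turnover genes 3 of 6 rose, while of 9 collagen folding genes plod3 fell (-0.77 ± 0.22). Of 3 skeletal muscle markers 2 were higher, with summed levels of 34450 to 38960 CPM in the exposed pools and 29550 to 34470 CPM in control_mixed. Of 10 liver markers 1 was lower (sums of 5225 to 7834 CPM in the exposed pools and 8317 to 10270 CPM in control_mixed), and the part of these cells in the matrix changes was not tested. No member changed from 0.06 to 2 µM, where at most 0.0369% of the panel changed and at most 2 of 52 members had an unadjusted p under 0.05, as had 2.47 to 5.28% of the panel.

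PFBA, PFBS and PFDA changed no member at any of their concentrations by edgeR's quasi-likelihood test. At the highest concentrations 0.146, 0.875 and 0.583% of the panel changed with PFBA, PFBS and PFDA. At lower concentrations 0 to 0.182% of the panel changed with PFBA, 0.0365 to 0.328% with PFBS and 0.0364 to 0.292% with PFDA. At an unadjusted p under 0.05 these highest concentrations had 6 of 49, 2 of 50 and 4 of 53 members (7.43, 7.04 and 6.81% of the panel), and DESeq2 also called 0 of them. The cartilage collagen col2a1b had a log2 change of -0.15 ± 0.15 with PFBA at 600 µM, 0.12 ± 0.17 with PFBS at 600 µM and 0.01 ± 0.20 with PFDA at 12 µM. For timp2b the log2 changes were -0.59 ± 0.32 with PFBA, 0.11 ± 0.37 with PFBS and -0.25 ± 0.30 with PFDA.

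Chemicals were compared in 7 pairs at matched concentrations, with p adjusted over all probes of all 7 pairs. PFOS and PFOA, a sulfonic and a carboxylic acid of similar size, differed most at 40 µM, where 3 members were higher with PFOS, 8 were lower with PFOS, and 27.9% of the panel differed. The inhibitor timp2b averaged 61.2 ± 17.7 CPM with PFOS and 13.8 ± 2.21 CPM with PFOA (SD, n = 5 each), a log2 difference of 2.14 (95% interval 1.59 to 2.68). The protease adam8a averaged 73.2 ± 6.54 CPM with PFOS and 35.6 ± 3.94 CPM with PFOA, a difference of 1.04 (95% interval 0.67 to 1.4). The cartilage gene col9a3 averaged 151.8 ± 24.5 CPM with PFOS and 315 ± 39.8 CPM with PFOA, a difference of -1.05 (95% interval -1.39 to -0.72). The third gene higher with PFOS was adamts5, and besides col9a3 the lower ones were col1a1b, col1a2, col5a3b, col6a2 and dcn, with differences of -0.42 to -0.76, and col11a2 and itga1. The last 2, at -2.22 (95% interval -2.88 to -1.57) and -5.03 (95% interval -6.16 to -3.90), are the genes that differ between the DMSO groups.

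At 200 µM the sulfonic acid PFHxS had 9 members lower than PFHxA, the carboxylic acid with a chain of similar length, and none higher, where 13.5% of the panel differed. The 9 were sparc, postnb, hapln1a and the fibrillar collagens col1a1a, col2a1b, col5a1, col5a2a, col11a1a and col11a2. For sparc the pools averaged 5088 ± 959 CPM with PFHxS and 13730 ± 2610 CPM with PFHxA (SD, n = 4 each), a log2 difference of -1.43 (95% interval -1.94 to -0.92). For col2a1b they averaged 621 ± 128.5 CPM with PFHxS and 989.5 ± 161.8 CPM with PFHxA, a difference of -0.67 (95% interval -1.04 to -0.30). For col5a2a they averaged 214 ± 22.6 CPM with PFHxS and 281.9 ± 17.4 CPM with PFHxA, a difference of -0.40 (95% interval -0.62 to -0.18). In these 3 genes the means stood apart by more than either SD. For sparc, PFHxS pools already had 4462 to 5721 CPM at 6 µM and had 7526 to 10180 CPM at 400 µM. The control_ottawa pools, which both chemicals share, spread over 4256 to 16650 CPM of sparc. For col11a2, at 4.22 ± 1.01 CPM with PFHxS and 14.2 ± 14.5 CPM with PFHxA, the SD of the PFHxA pools was as large as their mean. Replicate 1 of PFHxA stood above the other 3 PFHxA pools in several of the 9. Its col1a1a level was 808 CPM, where the others had 376 to 429 CPM, and its col11a1a level was 425.9 CPM, where they had 119.4 to 213.9 CPM. Its col5a1 level was 160 CPM, where they had 70.2 to 94.9 CPM. Without that pool, of the 9 only sparc, col2a1b and col5a2a passed and the count was 4. When any other single pool was left out the count was 4 to 13. Of the 9, only sparc passed whichever pool was left out. The call of col2a1b was lost without PFHxA replicate 2 or PFHxS replicate 4, and that of col5a2a without PFHxS replicate 3.

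The other pairs differed in few members. PFHxA, with the longer chain, had sparc higher and spp1 lower than PFBA at 600 µM, where 10.3% of the panel differed. Osteopontin (spp1) averaged 214 ± 28.8 CPM with PFHxA and 405 ± 39.8 CPM with PFBA, a log2 difference of -0.92 (95% interval -1.39 to -0.45), and sparc averaged 14890 ± 2882 CPM with PFHxA and 9051 ± 277.5 CPM with PFBA, a difference of 0.72 (95% interval 0.26 to 1.17). With single exposed pools left out, spp1 passed every time, while sparc passed only without PFHxA replicate 2 or 3. For PFBS against PFBA at 600 µM no member of 53 passed (0.605% of the panel, and 0 members with an unadjusted p under 0.05), and for PFDA against PFOA at 12 µM none of 54 (1.86% of the panel, 3 members with an unadjusted p under 0.05). These do not show equal levels: the median half-width of the 95% intervals over members was 0.47 and 0.42 on the log2 scale, and 14 and 18 intervals reached past a difference of 1 in size. PFNA was set against PFHxA and PFOA through their changes from separate DMSO groups. Against PFHxA at 200 µM only col9a1a differed, being lower with PFNA by a log2 difference of -1.87 (95% interval -3.04 to -0.69), where 7.1% of the panel differed. Its call was lost without PFNA replicate 1, 2 or 4 and without PFHxA replicate 1. Against PFOA at 40 µM col9a3 had a difference of -0.69 (95% interval -1.06 to -0.31), where 4.38% of the panel differed. There col11a2 and itga1 were lower too, at -1.60 (95% interval -2.54 to -0.66) and -5.31 (95% interval -8.53 to -2.10). The call of itga1 was lost without PFNA replicate 1, 2 or 4, and that of col11a2 without replicate 4. Counts of itga1 were near 0 in control_pfna (median 0.296 CPM, range 0 to 14.1).

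**Figure D5:**
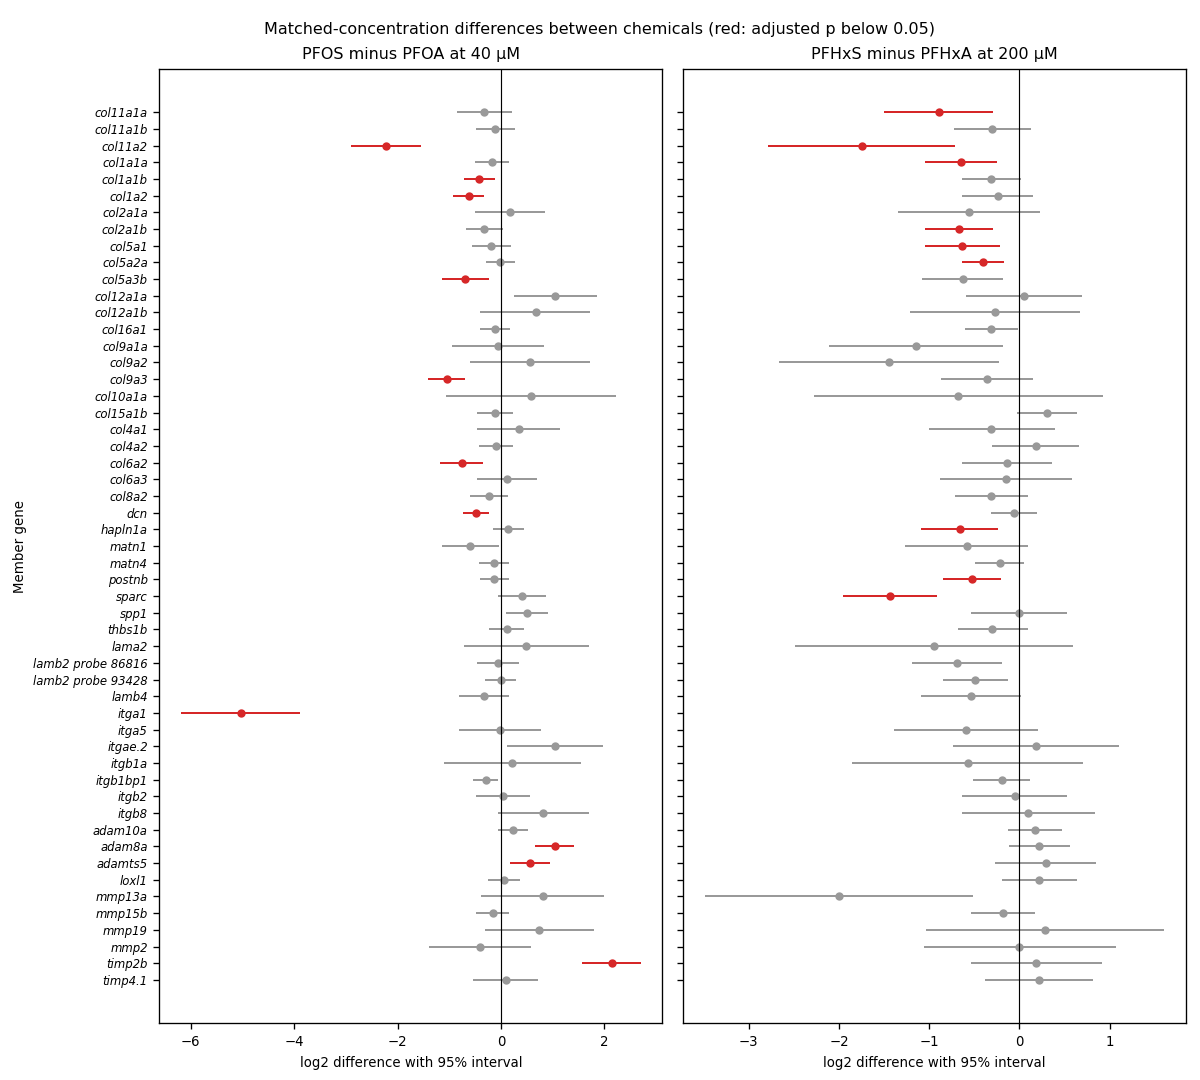
Log2 difference with its 95% interval of the tested members drawn for PFOS minus PFOA at 40 µM (left) and PFHxS minus PFHxA at 200 µM (right), red where the adjusted p was under 0.05. On the left 3 red members lie above 0 and 8 below, and on the right all 9 red members lie below 0.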

How the data were processed

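The authors deposited raw read counts per TempO-Seq probe, not normalized, for 228 libraries. Per the submitters' processing notes fastp 0.23.2, STAR 2.7.10b and R 4.4.1 were used. No genome build is given in the sources used here. Groups came from the labels, and 188 exposed and 26 DMSO pools entered the comparisons. PFDA was assigned to control_mixed by assumption, since no control label names it. A pair of DMSO libraries that the labels exclude, the reference RNA and the water libraries were not compared.

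Counts were fitted in R 4.3.3 with edgeR 4.0.16 (filterByExpr, TMM, quasi-likelihood test), with 1 fit for each chemical over its 5 concentrations and its DMSO pools, and Benjamini-Hochberg adjustment over all probes tested in a comparison. The 7 pairs of chemicals were fitted likewise and adjusted together. Probe counts have no molecular identifiers, so read counts are not independent molecules. Over 443 pairs of pools of the same group, the smallest chi-square per degree of freedom was 6, so no such pair had near-identical counts. Pools of different groups were not compared in this way. All 58 gene symbols matched the reference gene names. The fits were tested on simulated data.

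The members and gene lists were chosen with earlier results of these data known. Values in every pool are given for the called members with the smallest adjusted p (up to 6 per highest concentration, mean count of at least 10), for members called at 3 or more concentrations or for 3 or more chemicals, and up to 3 list genes per chemical are named. A few others (adamts5 and col12a1a with PFOS among them) were added after their values were seen. The values of 1 member and 1 list gene are not reported here. Alternatives were scaling by DESeq2 size factors or by total counts, keeping all low counts, the DESeq2 1.42.0 test, a replicate block, extraction batch or plate as a term, other reference pools, and each pool left out in turn.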

Additional observations from a re-analysis of the deposited data

Results flagged for a closer look

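The called members picked by the rule on adjusted p and number of calls were each looked at in their own exposed and DMSO groups of 4 to 10 pools, which gave 55 sets of 1 gene in 1 group. In 2 of the 55 a single pool stood apart from the others by Dixon's criterion, which chance meets in about 1 of 20 sets. Other genes and groups, such as col9a2, were not looked at in this way. In PFNA at 450 µM, replicate 1 had 64.72 CPM of timp2b, while the other 3 pools had 38.09 to 41.5 CPM. In control_mixed, replicate 3 had 8020 CPM of col1a2, while the other 3 pools had 6502 to 6638 CPM, and the call of col1a2 with PFOS at 40 µM was lost without that pool.

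In 5 of the 7 comparisons of chemicals, members differed between the exposures by a test of the difference itself. The pairs with PFNA were compared through their changes from separate DMSO groups. The number of members was 2 for PFHxA against PFBA at 600 µM (3.85% of the members, 10.3% of the panel). It was 9 for PFHxS against PFHxA at 200 µM (17 and 13.5%) and 11 for PFOS against PFOA at 40 µM (20.4 and 27.9%). For PFNA it was 1 against PFHxA at 200 µM (1.82 and 7.1%) and 3 against PFOA at 40 µM (5.56 and 4.38%).

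Libraries labelled water, with 165618 to 202586 counts each, carried member counts. Members took 2.13 to 2.45% of these counts, and 2.28 to 4.25% of those of a DMSO pool. For col1a2 the water libraries held 791 to 1030 counts, beside a median of 23354.5 in the embryo pools. For 3 member probes the highest water count exceeded the median count of the embryo pools: by a ratio of 3.33 for itga1, 3.19 for 1 of the 2 lamb2 probes and 2.19 for timp2b. The part of this background in the embryo counts was not tested.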

How the results depend on the processing

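The direction and the threshold side of most results held under the alternatives. Of the 60 member calls at the highest concentrations, 24 missed the threshold with the RNA extraction batch as a term. With each chemical's own lowest concentration as reference, 23 missed it and 3 reversed. The numbers of members called that moved by over 1.5 times were as follows. Panel shares are not given beside them, so they do not tell members from the whole panel. With the RNA extraction batch as a term, the count was 0 for PFHxA at 600 µM and 7 for PFHxS at 400 µM. With each chemical's own lowest concentration as the comparison group, it was 1 for PFHxA at 600 µM, 0 for PFOA at 400 µM and 18 for PFNA at 450 µM. There the log2 changes of col11a2 (-0.35) and itga1 (-0.32) with PFOA at 400 µM and of col12a1b (0.03) with PFNA at 450 µM reversed. For PFOA at 400 µM the count was 1 with DESeq2 size factors, 1 with total counts and 1 with no low-count filter. For PFNA against PFHxA it was 5 with DESeq2 size factors, and for PFHxA against PFBA it was 5 with total counts. The causes were not tested.

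Same-numbered pools showed no pairing: 0 to 2 of 4 pairs per chemical had a correlation of their deviations over 0.1, in a range of -0.21 to 0.16, and not every pool correlated best with its own number. Replicate numbers do not follow the RNA extraction batches, so this check could not show a pairing by batch. With the replicate block, which uses the same numbers, the count was 1 for PFBA at 600 µM, 17 for PFNA at 200 µM, 4 for PFNA against PFHxA and 5 for PFNA against PFOA. Panel shares are not given for these counts either.

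With each pool left out in turn, the counts ranged over 0 to 0 for PFBA, PFBS and PFDA, 1 to 4 for PFDS, 1 to 6 for PFHxA, 6 to 13 for PFHxS, 28 to 33 for PFNA, 0 to 2 for PFOA and 6 to 8 for PFOS at the highest concentrations. In the same fits the panel probes called numbered 1 to 8 for PFBA, 12 to 27 for PFBS and 6 to 20 for PFDA. They numbered 186 to 271 for PFDS, 377 to 593 for PFHxA, 474 to 702 for PFHxS, 748 to 1006 for PFNA, 40 to 97 for PFOA and 544 to 721 for PFOS. For pairs the member counts ranged over 0 to 0 for PFBS against PFBA, 0 to 1 for PFDA against PFOA, 1 to 2 for PFHxA against PFBA, 4 to 13 for PFHxS against PFHxA, 0 to 7 for PFNA against PFHxA, 1 to 3 for PFNA against PFOA and 8 to 11 for PFOS against PFOA. Panel counts with pools left out are not given for the pairs or for lower concentrations. Of the members, 10 had a median embryo count under 10, where changes were not detectable unless large.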

Other observations

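In 18 of 214 embryo pools col9a2 stood at more than 2.5 times the median of the other pools of its group, by ratios of 2.55 to 19.6 and at levels of 191.8 to 1170 CPM. These pools came from exposed and DMSO groups, among them control_pfna replicates 10 and 11, PFOA at 4 µM replicate 1 and PFHxS at 400 µM replicate 4. The cartilage collagens moved unevenly in them. The type II gene col2a1a was over 1.5 times the other pools of its group in 15 of the 18 pools and in 10 of the other 196. The type IX gene col9a1a was so in 15 of the 18 and in 27 of the 196, and the type XI gene col11a2 in 11 of the 18 and in 28 of the 196. The inhibitor timp2b was so in 11 of the 18 and in 15 of the 196. In contrast col2a1b, the paralog of col2a1a, was over 1.5 times in 0 of the 18 pools (ratios of 0.7 to 1.39), and so was matn1 (0.544 to 1.38). The pattern was picked after the values were seen, and no test was made of it.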
